A study of Mus musculus with 6 samples.

Results

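The genes described here are 10 proteoglycan and proteoglycan-like genes chosen by symbol, namely Prg4 (lubricin), Dcn (decorin), Bgn (biglycan), Vcan (versican), Hspg2 (perlecan), the syndecans Sdc1, Sdc2, Sdc3 and Sdc4, and the glypican Gpc1. All 10 symbols were found among the 16880 genes listed, and all 10 passed the filter on low counts, which left 11983 genes for the test. RNA of cultured mouse cells was sequenced from 3 libraries of cells given IL-1β at 10 ng/mL (the IL group) and 3 libraries of cells given IL-1β at 10 ng/mL together with NP-G2-044 at 10 μmol/L (the ILN group), for 24 h by the methods. Both groups carry IL-1β, an inflammatory cytokine, and differ by NP-G2-044, a small molecule inhibitor of the actin-bundling protein fascin (FSCN1). The DMSO group of the methods was not analysed here, so no value below separates the effect of IL-1β itself.

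The cells are ATDC5, a chondrogenic mouse line, by their labels, whereas the methods describe articular chondrocytes of young mice. The titles name the inhibitor NP-G2-044 and the treatment label NP-G2-047. The labels do not say that the libraries of a group came from separate cultures, although the methods call them biological replicates, so p-values measure the spread between these libraries. That spread was small, with a common biological coefficient of variation of 2.33% over the genes tested. Whether other cultures would vary more was not tested. Of 16 chondrocyte marker genes, 10 were listed and Matn1 and Matn4 were at 0 in every library. The 10 summed to between 22.4 and 23.3 TPM (a level scaled to transcript length and library) in the IL libraries and between 17.6 and 18.4 TPM in the ILN libraries. The defining marker Col2a1, named after its values were seen, stood at 0.217 TPM in the IL group and 0.04 TPM in the ILN group, and Acan is not listed. Col2a1 had only 32 reads over the IL libraries and 6 over the ILN libraries. Only Sox5 (10.3 TPM to 2.27 TPM), Sox9 (6.44 TPM to 11.4 TPM) and Col11a2 (5.01 TPM to 3.43 TPM) of this list reached 1 TPM in a library.

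A proteoglycan is a core protein that carries chondroitin, dermatan or heparan sulfate chains. In cartilage, lubricin coats the joint surface as a boundary lubricant, the small leucine-rich proteoglycans decorin and biglycan bind collagen fibrils and growth factors, versican binds hyaluronan, and perlecan fills the matrix around the cells. Syndecans span the cell membrane and glypicans are tied to it by a lipid anchor, and both present growth factors to their receptors through heparan sulfate.

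In the ILN libraries, 8 of the 10 genes were lower than in the IL libraries and 2, Prg4 and Gpc1, were higher, each with an adjusted p below 0.05 (quasi-likelihood test of edgeR, Benjamini-Hochberg adjustment). That cutoff was passed by 80.0% of all genes tested, so on its own it says little about these 10. With a log2 fold change above 1 in size as well, 8 of the 10 were called against 16.6% of all genes tested. They comprised 2 higher genes (background 6.48%) and 6 lower ones, Dcn, Bgn, Vcan, Hspg2, Sdc3 and Sdc4 (background 10.1%), while Sdc1 and Sdc2 fell by less. The median log2 fold change of the 10 was -1.40, beside 0.00 over all genes tested. The 10 genes were chosen with earlier results of these data known, so these contrasts describe them and are no test of the set. The TPM values of both groups did not overlap for any of the 10, and the same held for 79.4% of all genes tested. These are bulk samples, in which fewer cells of a type and less RNA per cell cannot be told apart.

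The 6 libraries held 16615824 to 17735860 reads and 14155 to 14383 genes with at least 1 read. The inhibited protein's own gene, Fscn1, averaged 616 ± 9.46 TPM (SD, n = 3) with IL-1β and 252 ± 2.47 TPM with the inhibitor added, a log2 fold change of -1.26.

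**Figure D1:**
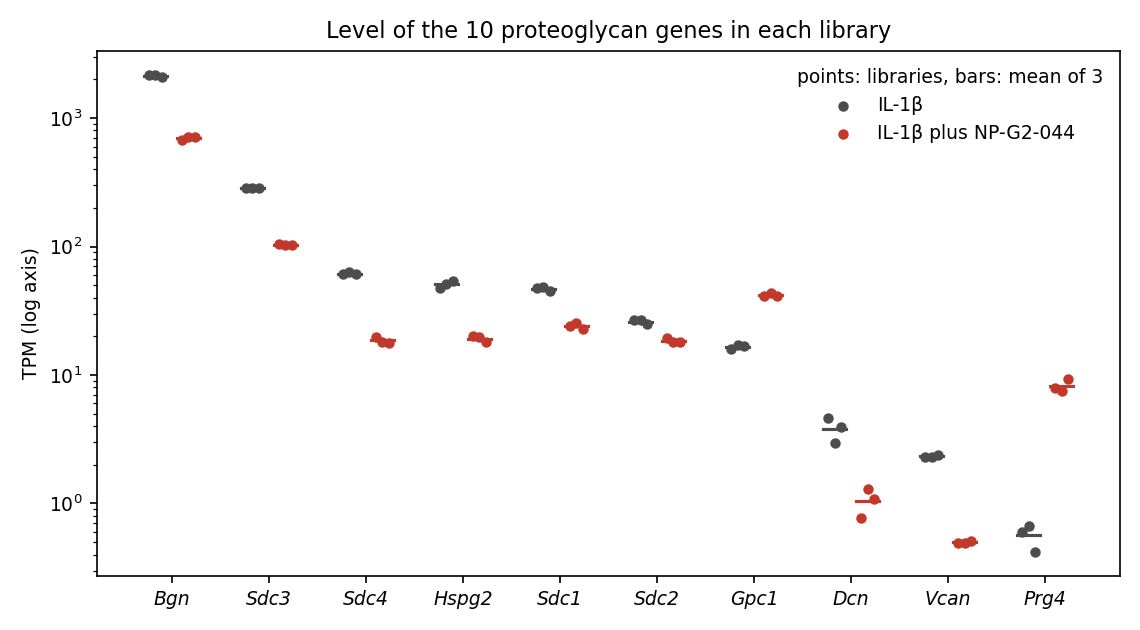
TPM (log axis) of the 10 genes in each of the 6 libraries, with grey points for IL-1β, red points for IL-1β plus NP-G2-044 and bars for the mean of 3. Prg4 and Gpc1 sit higher with the inhibitor and the other 8 genes sit lower, with Bgn above all others in both groups.

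Promoter sequence was available in the RefSeq table used here (GRCm38.p6) for Bgn, Hspg2, Sdc1, Sdc3, Sdc4 and Vcan, and not for Prg4, Dcn, Sdc2 or Gpc1. The 6 sequences are shown because the table held them, and none of a gene that rose was available beside them. All 6 genes were lower in the ILN group, as were Dcn and Sdc2. Whether the motifs have a part in that was not tested. Each line gives the 150 bases just before the RefSeq transcription start, 5′ to 3′ on the strand of the gene, and capitals mark matches to the motifs searched. The GENCODE M21 annotation places some starts elsewhere. There Sdc4 begins at 164443887, upstream of its whole window, and Sdc1 and Hspg2 begin at 8771323 and 137468769, inside theirs.
Bgn (chrX:73483451-73483600, + strand): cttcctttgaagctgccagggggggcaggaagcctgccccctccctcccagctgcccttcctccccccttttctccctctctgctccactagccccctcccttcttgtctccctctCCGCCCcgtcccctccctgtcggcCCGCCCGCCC
Vcan (chr13:89742513-89742662, - strand): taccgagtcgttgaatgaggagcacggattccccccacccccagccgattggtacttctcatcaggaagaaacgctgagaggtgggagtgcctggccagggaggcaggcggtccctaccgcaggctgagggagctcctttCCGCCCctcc
Hspg2 (chr4:137468653-137468802, + strand): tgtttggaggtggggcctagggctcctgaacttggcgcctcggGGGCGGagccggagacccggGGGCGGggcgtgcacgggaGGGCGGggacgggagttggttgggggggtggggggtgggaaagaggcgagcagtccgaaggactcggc
Sdc1 (chr12:8771246-8771395, + strand): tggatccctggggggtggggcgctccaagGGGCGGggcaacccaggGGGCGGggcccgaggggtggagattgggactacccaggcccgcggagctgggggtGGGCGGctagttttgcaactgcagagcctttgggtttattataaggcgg
Sdc3 (chr4:130792387-130792536, + strand): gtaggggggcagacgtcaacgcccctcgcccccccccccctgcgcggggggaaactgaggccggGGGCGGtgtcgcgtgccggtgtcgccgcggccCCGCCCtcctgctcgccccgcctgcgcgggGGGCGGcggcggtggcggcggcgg
Sdc4 (chr2:164443189-164443338, - strand): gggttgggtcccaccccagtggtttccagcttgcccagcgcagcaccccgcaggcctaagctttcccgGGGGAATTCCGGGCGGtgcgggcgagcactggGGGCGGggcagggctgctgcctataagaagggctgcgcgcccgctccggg

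The 250 bases before each start were searched on both strands. The GC box, a site of Sp-family factors, was searched as GGGCGG. The TATA box was given the letters TATAAA, the TEAD site the letters CATTCC, the AP-1 site was TGANTCA and the cyclic AMP response element was TGACGTCA. An NF-κB site and a CArG box, the site of serum response factor, were searched by their usual consensus. All 6 sequences held a GC box, with 5 matches in Hspg2, 4 in Sdc4, 3 each in Bgn, Sdc1 and Sdc3, and 2 in Vcan, and 32.7% of the 32851 promoters of the table held at least 1. Sdc4 also held an NF-κB match, which starts 82 bases before its start and runs into a GC box in the sequence above, and 3.90% of all promoters held one. No match to the other 5 motifs was found in these 6 windows, and among all promoters of the table the TATA box occurred in 12.4%, the AP-1 site in 6.75%, the cyclic AMP response element in 1.55%, the TEAD site in 12.6% and the CArG box in 1.47%. The windows were rich in G and C, from 62.4% in Vcan to 76.4% in Sdc3. The shares over all promoters are not matched for G and C content, so they do not show whether GC boxes are frequent here beyond it.

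Prg4 encodes lubricin, the secreted mucin-like glycoprotein of the joint surface, and lies on chromosome 1 at 150449412 to 150466165, minus strand (GRCm38, GENCODE M21, as for all positions below). It had 18, 18 and 13 reads in the IL libraries and 306, 298 and 366 in the ILN libraries, or 0.60, 0.67 and 0.42 TPM against 7.95, 7.47 and 9.28 TPM. The groups were far apart, although lubricin transcripts stayed sparse in both. The mean rose from 0.563 ± 0.129 to 8.23 ± 0.938 TPM (SD, n = 3 each), a fitted 18.7-fold increase (log2 fold change 4.23, SE 0.147, adjusted p = 1.02e-31), the 34th largest rise of all genes tested. On the log2(TPM + 1) scale, which understates changes of low genes, the difference was 2.56. The spread within the IL group, with a coefficient of variation of 22.9%, was close to the 24.7% that counting error alone gives at such low counts. Exons of Prg4 share 204 bases with Tpr on the opposite strand. The strand setting of the counting is not known, and Tpr, at 108 and 117 TPM, differed by a log2 fold change of 0.15.

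Dcn (chromosome 10, 97479609 to 97518143, plus strand) and Bgn (chromosome X, 73483602 to 73495933, plus strand) encode the paired small leucine-rich proteoglycans decorin, which binds collagen fibrils, and biglycan, which also acts as a ligand of Toll-like receptors. Dcn was scarce, with 79, 49 and 67 reads in the IL libraries and 14, 24 and 20 in the ILN libraries, or 4.62, 2.93 and 3.93 TPM against 0.77, 1.30 and 1.08 TPM. Its mean fell from 3.83 ± 0.850 to 1.05 ± 0.266 TPM, 3.52-fold (log2 fold change -1.81, SE 0.213, adjusted p = 1.04e-10), the widest error of the 10 genes, and the difference on the log2(TPM + 1) scale was -1.23. The paper names Dcn, Prg4, Col2a1 and Sox9 among the matrix genes that the inhibitor raised in its RNA sequencing. In the counts used here Prg4 and Sox9 were higher in the ILN group, but Dcn and Col2a1 were lower. The reason for this difference was not tested. Bgn was the most abundant of the 10, with 49878, 48849 and 47732 reads in the IL libraries and 16346, 17602 and 17522 in the ILN libraries. In TPM these were 2159, 2178 and 2085 against 677, 714 and 709, so that Bgn moved from the 71st to the 164th most abundant gene. It fell 2.99-fold (log2 fold change -1.58, SE 0.0281, adjusted p = 1.57e-44), from 2141 ± 49.3 to 700.1 ± 19.8 TPM.

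The level of Bgn over that of Dcn, as a ratio of TPM, was 467, 743 and 531 in the IL libraries and 880, 549 and 657 in the ILN libraries. The groups overlapped, and the log2 ratios of 9.15 ± 0.346 and 9.41 ± 0.343 (SD, n = 3 each) gave p = 0.4 in a two-sided exact permutation test. With 3 libraries against 3 such a test cannot go below 0.1. The log2 difference of 0.26 rested on single libraries, at 0.077 without ILN replicate 1, 0.12 without IL replicate 1, 0.42 without ILN replicate 2 and 0.45 without IL replicate 2.

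Vcan (chromosome 13, 89655312 to 89742509, minus strand) encodes versican, a large chondroitin sulfate proteoglycan of loose and developing matrix. It had 238, 242 and 248 reads in the IL libraries and 52, 52 and 51 in the ILN libraries, or 2.30, 2.30 and 2.37 TPM against 0.49, 0.49 and 0.51 TPM. This 4.93-fold fall was the largest of the 8 lower genes (log2 fold change -2.30, SE 0.112, adjusted p = 3.36e-25), in a gene of low level in both groups, and was -1.15 on the log2(TPM + 1) scale. The agreement within the ILN group, with a coefficient of variation of 2.32%, was closer than the 13.9% that counting error alone gives on average.

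Hspg2 (chromosome 4, 137468769 to 137570630, plus strand) encodes perlecan, the heparan sulfate proteoglycan of basement membranes and of the matrix next to the chondrocyte. Its level was 47.4, 51.3 and 53.9 TPM in the IL libraries and 20.0, 19.6 and 17.9 TPM in the ILN libraries, from 7094 to 8009 reads against 2880 to 3150. The groups did not overlap, and the mean fell from 50.8 ± 3.28 to 19.2 ± 1.11 TPM, 2.59-fold (log2 fold change -1.37, SE 0.0410, adjusted p = 5.76e-16).

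**Figure D2:**
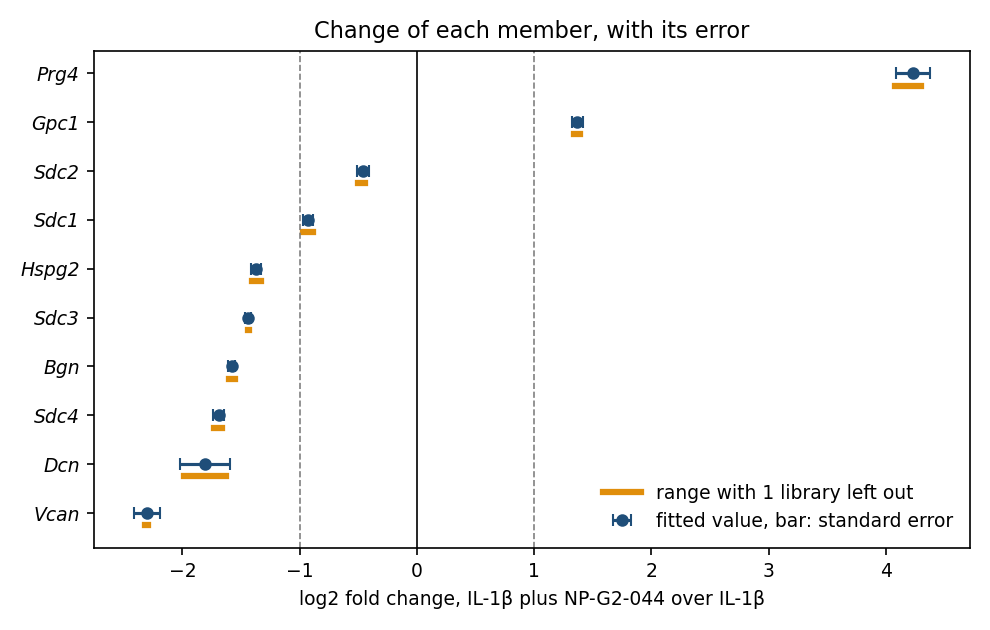
Log2 fold change of each of the 10 genes (ILN group over IL group) with its standard error (blue) and the range of values when 1 of the 6 libraries was left out (orange); dashed lines mark 1 and -1. Sdc1 and Sdc2 lie inside the dashed lines, and no range reaches 0.

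The 4 syndecans all fell, by unequal amounts. Sdc3 (chromosome 4, 130792537 to 130826319, plus strand), best known from the nervous system and from developing cartilage, was the most abundant, at 284, 287 and 285 TPM in the IL libraries and 104, 103 and 102 TPM in the ILN libraries. It fell 2.71-fold (log2 fold change -1.44, SE 0.0273, adjusted p = 9.43e-44) with the smallest error of the 10. Sdc4 (chromosome 2, 164424247 to 164443887, minus strand), a syndecan of focal adhesions, stood at 60.6, 63.1 and 60.9 TPM against 19.9, 18.2 and 17.9 TPM. Its 3.23-fold fall was the largest among the syndecans (log2 fold change -1.69, SE 0.0470, adjusted p = 3.56e-36).

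Sdc1 (chromosome 12, 8771323 to 8793715, plus strand), typical of epithelia and plasma cells, stood at 47.6, 48.1 and 44.7 TPM in the IL libraries and 24.2, 25.5 and 22.6 TPM in the ILN libraries. It fell 1.90-fold (log2 fold change -0.93, SE 0.0449, adjusted p = 2.65e-25), just short of the cutoff on size. Sdc2 (chromosome 15, 32920723 to 33034935, plus strand), typical of mesenchymal cells, stood at 26.6, 26.7 and 24.9 TPM against 19.5, 17.9 and 18.0 TPM. Its 1.38-fold fall was the smallest change of the 10 genes (log2 fold change -0.46, SE 0.0494, adjusted p = 3.38e-12), ranking 5195th by size among all genes tested. The ranges of both groups were apart for each of the 4 syndecans.

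Summed over the 4 syndecans, the level was 420 ± 4.51 TPM in the IL group and 164 ± 3.65 TPM in the ILN group, 39.1% of the former. The share of Sdc3 in that sum moved from 68.0% ± 0.554 to 62.7% ± 0.744 (SD, n = 3 each) and that of Sdc4 from 14.7% ± 0.202 to 11.4% ± 0.452. The shares of Sdc1, 11.1% ± 0.348 to 14.7% ± 0.724, and Sdc2, 6.20% ± 0.185 to 11.3% ± 0.353, moved the other way. No share overlapped between the groups, and each of the 4 gave p = 0.1 in a two-sided exact permutation test, also after adjustment over the 4, which is the smallest that 3 against 3 libraries allow.

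**Figure D3:**
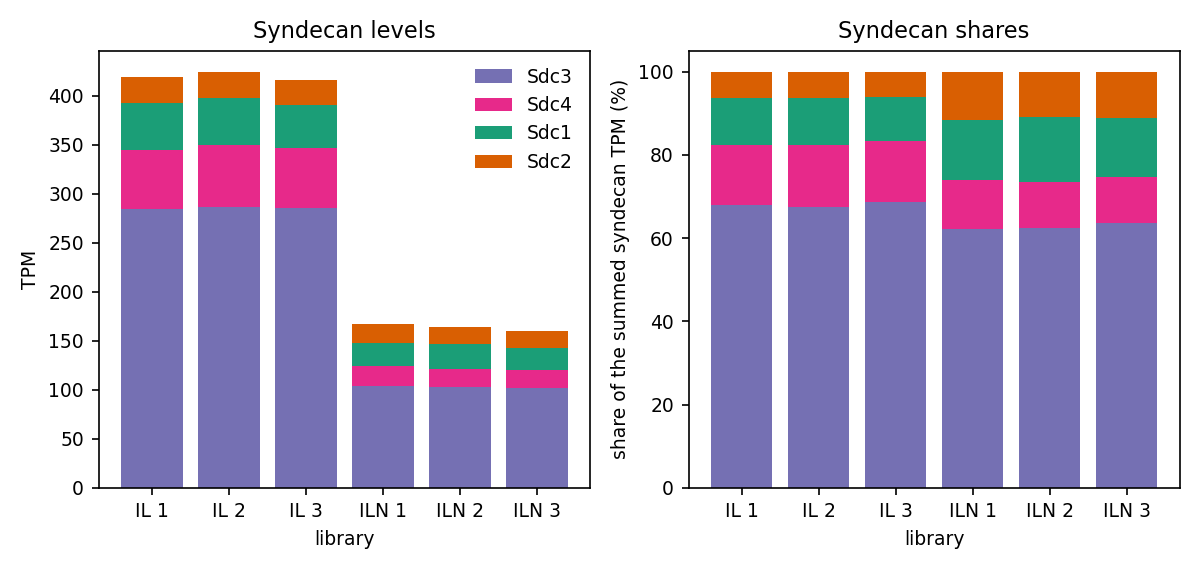
Stacked TPM of the 4 syndecans in each library (left) and the share of each in their sum, in percent (right), with IL for IL-1β and ILN for IL-1β plus NP-G2-044. The sum averages 420 TPM with IL-1β and 164 TPM with the inhibitor added, and Sdc2 takes 6.20% and 11.3% of it.

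Gpc1 (chromosome 1, 92831645 to 92860779, plus strand), the glypican of the set and a co-receptor for fibroblast growth factors, was the other gene that rose. It had 555, 580 and 582 reads in the IL libraries and 1513, 1634 and 1520 in the ILN libraries, or 15.8, 17.1 and 16.7 TPM against 41.0, 43.7 and 40.9 TPM. The groups did not overlap, and the mean rose from 16.5 ± 0.662 to 41.9 ± 1.61 TPM, 2.59-fold (log2 fold change 1.37, SE 0.0450, adjusted p = 7.51e-33). Its exons share 977 bases with Ankmy1 on the opposite strand, which held 13 reads over the IL libraries and 25 over the ILN libraries. Besides Prg4 and Gpc1, Sdc3 shares exon bases with genes on the opposite strand, 415 with Gm26716 and 48 with Gm12970, neither of which is listed.

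In the IL group the order of levels in TPM was Bgn, Sdc3, Sdc4, Hspg2, Sdc1, Sdc2, Gpc1, Dcn, Vcan and Prg4, and among neighbours in that order only Hspg2 and Sdc1 overlapped. In the ILN group Gpc1 stood in the third place after Bgn and Sdc3, followed by Sdc1, then by Hspg2, Sdc4 and Sdc2, whose values overlapped. Prg4, the lowest gene with IL-1β, stood above Dcn and Vcan with the inhibitor. The 10 genes together summed to 2635 ± 51.1 TPM in the IL group and 935 ± 18.1 TPM in the ILN group. Bgn made up 81.2% ± 0.334 of the sum and 74.9% ± 0.770 of it in turn, and without Bgn the sums were 494 ± 4.70 and 235 ± 4.27 TPM.

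**Figure D4:**
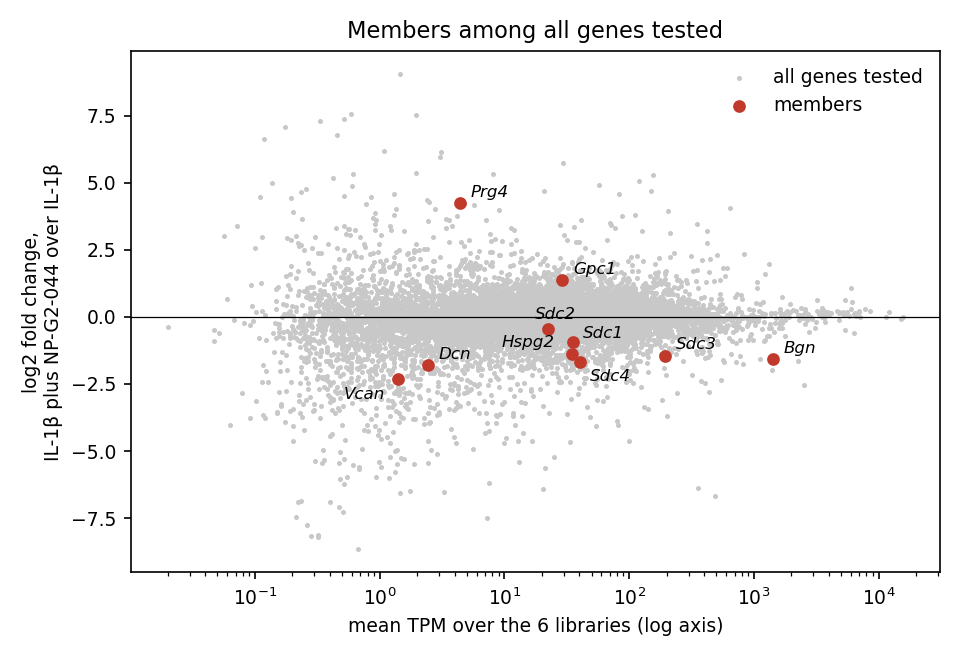
Log2 fold change against mean TPM over the 6 libraries (log axis) for all 11983 genes tested (grey), with the 10 proteoglycan genes in red. Prg4 ranks 34th among rises and Bgn is the member of highest level, at a log2 fold change of -1.58.

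The gene length that counts and FPKM imply was compared for the 7 genes with at least 100 reads in every library. It differed between the groups by no more than the -0.397% (ILN minus IL) of Sdc1 over all 6 libraries, and by -0.826% in Gpc1 without ILN replicate 1. Levels of single isoforms, such as those of versican, were not analysed here.

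Genes of the same families and of chain synthesis are given by list, with the counts that passed the adjusted p first and those past both cutoffs after them. Over all genes tested, 80.0% passed the adjusted p and 16.6% passed both cutoffs. The share of a list past both cutoffs ran from 21.4%, for the linker and the chondroitin lists, to 55.6% for the superficial zone list. With 7 to 14 genes tested per list, these counts describe the lists and are no test of them. Of 15 other small leucine-rich genes, 7 were tested, of which 4 were higher and 3 lower by adjusted p, and 2 and 1 past both cutoffs (median log2 fold change 0.42). Omd, which encodes osteomodulin of mineralized matrix, fell from 2.37 ± 0.283 to 0.243 ± 0.0321 TPM (log2 fold change -3.25), and Nyx, nyctalopin, rose from 0.297 ± 0.0404 to 2.84 ± 0.127 TPM (3.22). Both rest on few reads in 1 group, with 121 over the IL libraries and 13 over the ILN libraries for Omd, and 76 and 747 for Nyx. Among 9 tested hyalectans and hyaluronan partners, 2 were higher and 6 lower by adjusted p, and 0 and 4 past both cutoffs (median -0.78). Has1, a hyaluronan synthase, fell from 3.81 ± 0.446 to 1.84 ± 0.171 TPM (-1.01), and Cemip2, a cell-surface protein of hyaluronan breakdown, from 9.97 ± 0.505 to 4.02 ± 0.170 TPM (-1.28). The synthase Has2, named after its values were seen because it lies under the level of the naming rule, averaged 1.89 and 0.0967 TPM. It had 238 reads over the IL libraries and 13 over the ILN libraries.

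Among 9 other surface and basement membrane proteoglycans tested, 2 were higher and 6 lower by adjusted p, and 1 and 2 past both cutoffs (median -0.69). Gpc4, another glypican, fell from 22.2 ± 0.635 to 5.28 ± 0.347 TPM (log2 fold change -1.97), opposite in direction to Gpc1. Col18a1, a collagen that carries heparan sulfate, fell from 7.65 ± 1.18 to 2.04 ± 0.140 TPM (-1.85), and Cspg4 (NG2) rose from 1.77 ± 0.151 to 7.45 ± 0.462 TPM (2.11).

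The enzymes that build the chains moved both ways. Of 14 tested genes of the linker region and precursor supply, 4 were higher and 8 lower by adjusted p, and 1 and 2 past both cutoffs (median -0.41). Pxylp1, a phosphatase of linker xylose, fell from 30.3 ± 1.99 to 3.84 ± 0.371 TPM (log2 fold change -2.94) and Ugdh, which makes the UDP-glucuronate used for every chain, from 205.9 ± 1.56 to 93.9 ± 4.06 TPM (-1.10), while B4galt7, a linker galactosyltransferase, rose from 24.9 ± 0.616 to 48.9 ± 1.62 TPM (1.01). Of 13 heparan sulfate genes, 4 were higher and 8 lower by adjusted p, and 3 and 1 past both cutoffs (median -0.19). The epimerase Glce rose from 21.6 ± 1.77 to 47.6 ± 1.67 TPM (1.17), and Sulf2, which removes sulfate from finished chains outside the cell, fell from 111.9 ± 6.00 to 18.3 ± 0.661 TPM (-2.57). Of 14 chondroitin and dermatan sulfate genes, 3 were higher and 10 lower by adjusted p, and 0 and 3 past both cutoffs (median -0.40), the latter including the sulfotransferases Chst3 (6.58 ± 0.347 to 0.593 ± 0.0702 TPM, -3.42) and Chst12 (49.1 ± 0.726 to 15.2 ± 1.04 TPM, -1.66).

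Of 10 tested ligands and receptors of decorin and biglycan, 2 were higher and 8 lower by adjusted p, and 1 and 3 past both cutoffs (median -0.77). Tlr2, a receptor of soluble biglycan, fell from 67.0 ± 3.24 to 17.7 ± 0.601 TPM (log2 fold change -1.88), the ligand Tgfb3 from 14.7 ± 0.684 to 4.45 ± 0.271 TPM (-1.69) and Ccn2 from 1.64 ± 0.518 to 0.40 ± 0.0656 TPM (-1.99), and Ccn4, a matricellular protein, rose from 6.13 ± 0.482 to 14.8 ± 0.325 TPM (1.30). Ccn2 had only 111 reads over the IL libraries and 29 over the ILN libraries. Of 9 tested genes of the superficial zone, where lubricin is made, and regulators of Prg4, 2 were higher and 7 lower by adjusted p, and 1 and 4 past both cutoffs (median -0.88). The transcription factor Creb5, a known activator of Prg4, rose from 0.933 ± 0.0603 to 3.27 ± 0.290 TPM (2.15), and Clu, clusterin of the superficial zone, fell from 2.93 ± 0.319 to 0.877 ± 0.237 TPM (-1.64). The other tested transcription factors of that list, named after their values were seen, passed the adjusted p only. Foxo3 rose (0.57), while Foxo1 (-0.88), Nfatc1 (-0.74) and Nfat5 (-0.30) fell. Whether any of them acts on Prg4 in these cells was not tested. Dkk3 of that list, with 43 reads over the IL libraries and 0 over the ILN libraries, was at least 15.1-fold lower, taking 3 reads over the ILN group as the limit of a count of 0, and at that limit the median stayed at -0.88.

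**Figure D5:**
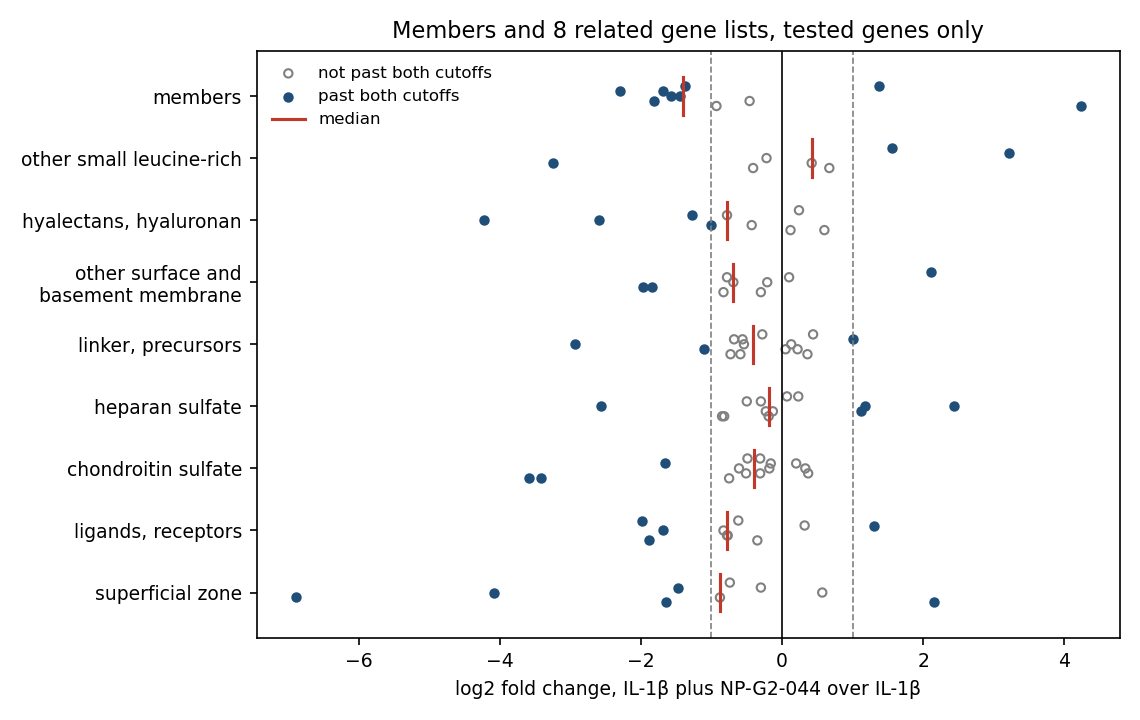
Log2 fold change of the 10 genes (members) and of the tested genes of 8 related lists, with filled points past both cutoffs, open points not past both, a red line at each median and dashed lines at 1 and -1. Both directions occur in 6 of the 8 lists past both cutoffs, and the leftmost point, Dkk3, is a fitted value of a gene with 0 reads in the ILN group.

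Genes used as markers of other cell types were also looked at, and some differed between the groups, although the labels name the ATDC5 line for every library. The paper counts Col1a1 and Col3a1, in the fibroblast list, among genes of chondrocyte dedifferentiation. Whether cells of other types were present was not tested, nor was the part of these genes in the results above. The 10 fibroblast markers, all listed and with Thy1 at 0, summed to 5381 to 5571 TPM in the IL libraries and 1067 to 1153 TPM in the ILN libraries. Most of that sum was S100a4 (4313 to 730.4 TPM, group means) and Col1a2 (1098 to 331 TPM), with Col1a1, Col3a1 and Postn also lower past both cutoffs, Pdgfrb lower by adjusted p only and Pdgfra higher (2.36 to 8.69 TPM). Of 8 macrophage markers, 6 were listed and Ptprc was at 0, and the sum was 23.8 to 24.6 TPM in the IL libraries and 129 to 140.0 TPM in the ILN libraries, mostly through the lysosomal gene Cd68 (12.4 to 129.9 TPM), while Cd14 fell (11.4 to 4.89 TPM). The 5 listed endothelial markers of 7 summed to at most 0.73 TPM in any library. The 3 listed adipocyte markers of 5 summed to 2.87 to 5.09 TPM in the IL libraries and 0.36 to 0.74 TPM in the ILN libraries, mostly Fabp4.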

How the data were processed

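RNA was extracted with Trizol, and libraries were made with an Illumina TruSeq RNA kit per the labels. The submitters' processing notes name cutadapt, HISAT2 2.0, StringTie and mm10. The sources used here do not give the annotation or the strand setting. The authors deposited expected counts per gene and library, which are not normalized (10.17% to 11.06% of values are not whole), and TPM and FPKM, scaled by the authors per library. Counts were rounded, filtered with filterByExpr (minimum count 10), scaled by TMM and tested in edgeR 4.0.16 (R 4.3.3) by quasi-likelihood (glmQLFit with robust estimation), with no covariates and Benjamini-Hochberg adjustment over 11983 genes. The cutoffs were an adjusted p of 0.05 and a log2 fold change of 1 in size. SE is the log2 fold change over the square root of F. TPM describes levels and FPKM only the implied gene lengths. The test was checked on simulated data.

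The 10 genes, the lists and the naming rule were chosen with earlier results of these data known. Besides the 10 genes and Fscn1, the rule named up to 4 genes per list with the largest changes past both cutoffs and a mean of at least 1 TPM, and marker genes that reached 1 TPM in a library. Alternatives were DESeq2 1.42.0 and its size factors, library size alone, limma 3.58.1 (voom, or log2(TPM + 1) and log2(TPM + 0.1)), other filters, a replicate block, a test against a fold change of 2, FPKM for ratios, and leaving out each library.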

Additional observations from a re-analysis of the deposited data

How the results depend on the processing

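All 10 log2 fold changes kept their direction, and the same genes were called past both cutoffs, under every alternative that gave a value, 159 values in all. The filter of at least 10 CPM in 3 libraries removed Dcn. Tested against a fold change of 2, Sdc1 and Sdc2 no longer passed the adjusted p, which left 8 of the 10. Over the alternatives other than leaving out a library, the scarce genes moved most, from 2.56 to 4.23 for Prg4 and from -2.33 to -1.15 for Vcan, with the smallest size in each on the log2(TPM + 1) scale. Leaving out each library gave 4.08 to 4.30 for Prg4 and -1.99 to -1.63 for Dcn. The count of genes called past both cutoffs was 1987 of all genes (776 higher, 1211 lower) and 29 over the 8 lists. It was 1320 (516 higher, 804 lower) and 18 with limma on log2(TPM + 1), and 1900 (702 higher, 1198 lower) and 27 on log2(TPM + 0.1). The filter of at least 10 CPM gave 1164 (484 higher, 680 lower) and 16, and no filter gave 2567 (1011 higher, 1556 lower) and 30. DESeq2 gave 2252 (861 higher, 1391 lower) and 29. The test against a fold change of 2 gave 1473 (564 higher, 909 lower) and 25. Leaving out 1 library gave 2025 to 2071 and 26 to 30. Fewer genes pass the stricter filter. The TPM scales differ only in the constant added, and which genes account for the lower count with 1 was not tested. With the replicate block the count was 1984 (775 higher, 1209 lower) and 8 of the 10 genes were called as before. Deviations of libraries with the same replicate number correlated at -0.0934, -0.0236 and 0.0259, and those of unlike numbers at -0.107 to 0.129. No shared effect of the replicate number was visible, which cannot show whether the libraries were paired by design. Among the 10 genes, low counts limit Prg4 with IL-1β and Dcn and Vcan with the inhibitor, where counting error alone is 24.7%, 22.7% and 13.9%.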
